A study of Mus musculus with 15 samples.

Results

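The comparison described here set E14 mouse embryonic stem cells depleted of the RNA helicase Ddx10 (Ddx10KD) against E14 cells that received control small interfering RNA against EGFP (EGFPKD). It used the 3 Ddx10KD and 3 EGFPKD libraries, which are 6 of the 15 poly(A) RNA libraries of the study, taken by the treatment given in their labels. The other 9 libraries came from Ddx24KD, Ddx27KD and Ddx54KD cells, 3 of each, and serve below as a second comparator that contains no EGFPKD library. All groups were cells of the same line, plated on 0.2% gelatin, exposed for 16 h to 400 ng of small interfering RNA with 4 µL of Lipofectamine, and harvested at 48 h. The design text calls the 3 samples of a group biological replicates. The knockdown was transient, in 1 cell line and at 1 time, and the labels give neither the sequences of the small interfering RNAs nor their number per gene. The control carries the transfection and a small interfering RNA without a mouse target, so those features are shared by all groups.

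Ddx10 encodes a DEAD-box ATPase, a member of a family that remodels RNA and RNA-protein complexes. Its yeast counterpart acts in the nucleolus in the early assembly of the small ribosomal subunit. Assembly of ribosomes begins with transcription of a ribosomal RNA precursor by RNA polymerase I, goes on with cleavage and modification of that precursor by small nucleolar ribonucleoproteins, and draws on a large set of assembly factors and ribosomal proteins. Embryonic stem cells cycle fast with a short G1 phase, keep a naive state through factors such as Nanog, Klf2 and Zfp42, and leave it through a formative state marked by Otx2 and Pou3f1.

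The Ddx10KD libraries held 26866327 to 27694846 expected counts (reads assigned to genes by RSEM) and the EGFPKD libraries 27228516 to 27650746. Of 23845 genes in the files, 14335 passed the count filter and were tested in edgeR's quasi-likelihood test with Benjamini-Hochberg adjustment over all of them, and a gene is called below at an adjusted p under 0.05. Levels are TPM (transcript abundance scaled to transcript length and to the library), differences are fitted log2 changes with their SE, and a positive value means higher in Ddx10KD. Many genes named below were chosen from called genes whose groups did not overlap. For those genes, a lack of overlap was a condition of the choice and adds no evidence. Of the 4438 called genes, 4165 had groups that did not overlap. Among all 14335 tested genes, called or not, 6494 (45.3%) had groups that did not overlap. The background for all counts that follow is that 31.0% of tested genes were called, 16.5% higher and 14.5% lower, and that the median log2 change of all tested genes was 0.01. When the replicate number was added as a block, these shares were 44.0%, 22.8% and 21.3%. The first principal component of the 6 libraries held 63.2% of the variance and placed the Ddx10KD libraries between 20.7 and 33.4, apart from the EGFPKD libraries between -31.2 and -25.7. The second held 11.8% and placed replicate 2 of Ddx10KD and of EGFPKD, at -13.5 and -20.1, on the other side of 0 from the other 4 libraries. Changes varied with transcript length: the median log2 change was -0.07 in the 2867 tested genes with the shortest transcripts (109 to 1586 bases), where 7.85% were called higher and 18.2% lower, and 0.07 in the 2866 with the longest (4613 to 83437 bases), where 24.4% were called higher and 10.05% lower. The part of length in the list results below was not tested, and the number of members in these sets, called shortest and longest below, is given beside lists that hold many of them. Lists without such a number hold some of them too.

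The targeted transcript was reduced. Ddx10 (chr9:53098635-53248053 in mm10, reverse strand) had 20.9, 16.2 and 13.4 TPM in the Ddx10KD libraries, against 87.0, 83.9 and 91.2 TPM in the EGFPKD libraries. The groups did not overlap, and the 3 Ddx10KD libraries themselves differed in how much transcript was left. The log2 change was -2.43 ± 0.11 (SE) with an adjusted p of 1.77e-09. No protein level was measured.

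Markers of embryonic stem cells were present in all 6 libraries, with a summed level over 12 tested markers of 8298 to 8603 TPM in Ddx10KD and 8456 to 8591 TPM in EGFPKD. Of these 12, 4 were called lower (33.3%), namely Nanog, Zfp42, Lin28a and Fgf4, and 0 higher, with a median log2 change of -0.10. With the block 6 were lower and 2 higher, and 2 of the 4 lower calls held without any single library. Pou5f1, the core pluripotency factor, averaged 1604 ± 30.9 TPM in Ddx10KD and 1654 ± 31.5 TPM in EGFPKD (mean ± SD, n = 3 each, as in all levels given this way below). It was not called (-0.10 ± 0.051, adjusted p 0.144), but was with the block (0.0279). Markers of fibroblasts (10 tested) summed to 29.0 to 33.4 TPM in Ddx10KD and 29.3 to 37.2 TPM in EGFPKD, and those of blood and endothelium (12 tested) to 192 to 236 TPM in Ddx10KD and 165 to 196 TPM in EGFPKD, where each of the 3 Ddx10KD sums was above the EGFPKD sum of the same replicate number. Of these 12 markers, 4 were called higher (Tek, Kdr, Cd34 and Pecam1) and 0 lower, with a median log2 change of 0.31, and the higher count was 2 without Ddx10KD replicate 3. The longest set holds 5 of these 12 markers. Endoderm markers (28 tested) summed to 455 to 498 TPM in Ddx10KD and 519 to 534 TPM in EGFPKD, and trophectoderm markers (20 tested) to 400.1 to 474 TPM in Ddx10KD and 386 to 479.9 TPM in EGFPKD. Ptprc, Col3a1, Lyz2, Cdh5 and Dcn, defining markers of blood cells, fibroblasts, macrophages and endothelium, did not pass the count filter. These are bulk libraries, so a change in the share of a cell type and a change in RNA per cell cannot be told apart.

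**Figure D1:**
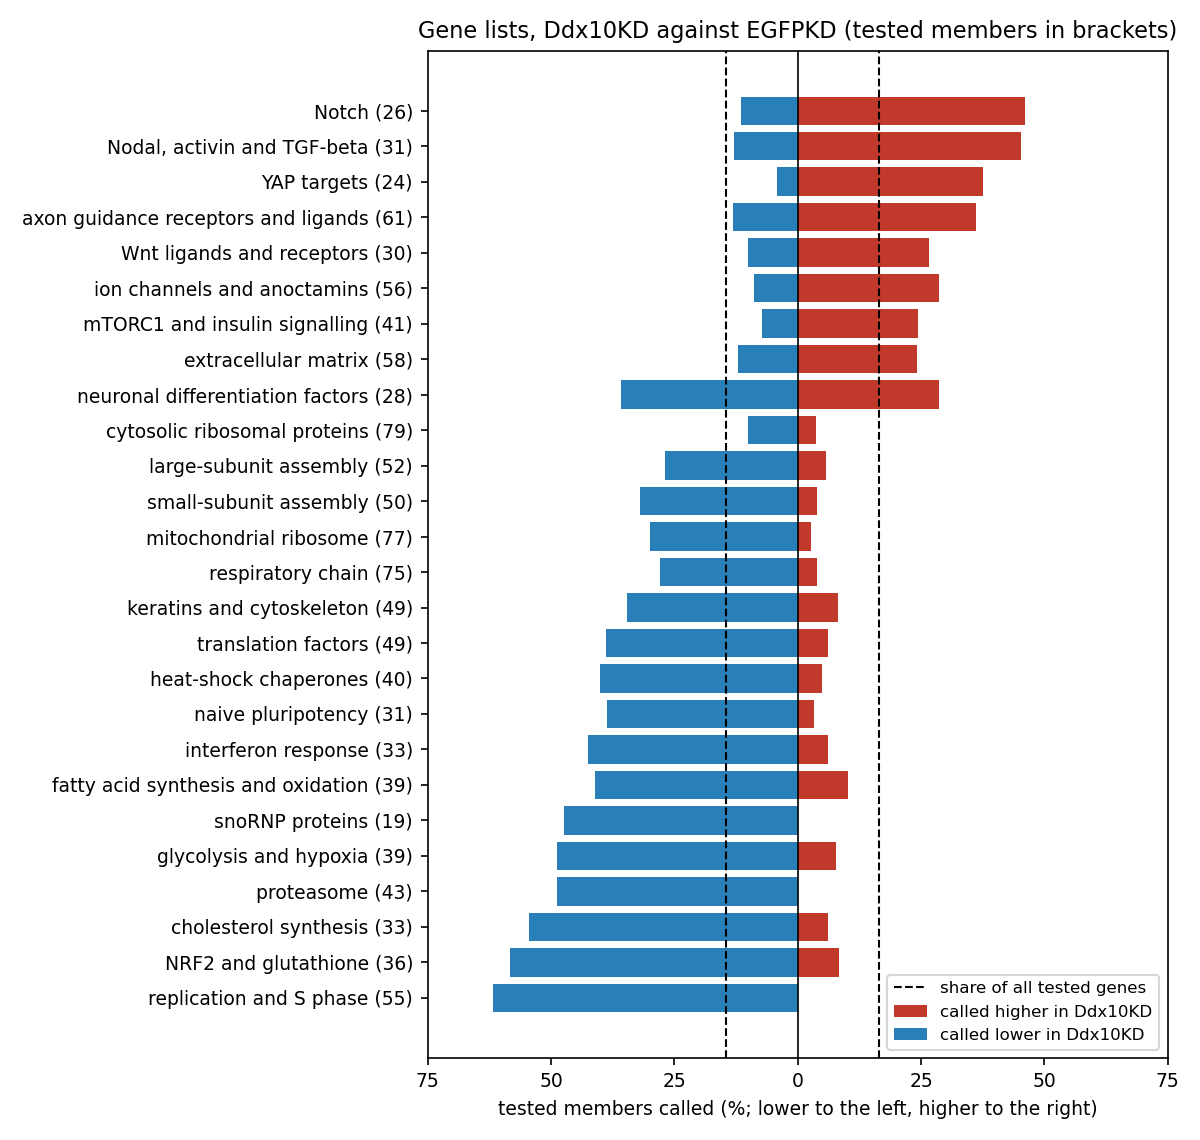
Share of tested members called in Ddx10KD against EGFPKD for 26 gene lists, with the number of tested members in brackets. Red bars to the right are members called higher in Ddx10KD and blue bars to the left members called lower, in percent, and the dashed lines mark the shares of all tested genes, 16.5% and 14.5%. The replication list has 61.8% of its members lower and none higher, while 46.2% of the Notch list was higher.

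DNA replication genes were lower. Of 55 tested genes of replication and S phase, 34 were called lower and none higher, and the median log2 change was -0.19. Of these calls, 29 held in all 6 fits that left out 1 of the compared libraries. Pcna, the sliding clamp that keeps polymerases on DNA, had 588, 565 and 572 TPM in Ddx10KD, against 814, 769 and 795 TPM in EGFPKD. Uhrf1, which brings the maintenance methyltransferase to replicated DNA, had 254, 229 and 236 TPM in Ddx10KD, against 339, 321 and 336 TPM in EGFPKD. Neither gene's groups overlapped, and the log2 changes were -0.52 ± 0.06 and -0.53 ± 0.051 with adjusted p of 2.11e-05 and 1.89e-06.

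The lower genes included factors of origin licensing, unwinding and DNA synthesis. Cdc6, which loads the helicase onto origins, changed by -0.53 ± 0.08, and Cdt1, its partner, by -0.322 ± 0.051. Of the helicase subunits, Mcm6 averaged 263 ± 1.59 TPM in Ddx10KD and 327 ± 3.73 TPM in EGFPKD, with a log2 change of -0.37 ± 0.051. Mcm4 changed by -0.46 and Mcm5 by -0.24, and Mcm10, which helps to activate the helicase, by -0.35. At the fork, the primase-associated Pola2 changed by -0.47, the polymerase subunit Pold2 by -0.323 and the ligase Lig1 by -0.29. The cyclins E, which drive entry into S phase, were lower too, with Ccne1 at 283, 260.0 and 235 TPM in Ddx10KD, against 393, 364 and 359 TPM in EGFPKD. Every Ddx10KD value of Ccne1 lay under every EGFPKD value, and the log2 changes of Ccne1 and Ccne2 were -0.58 and -0.59.

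E2F transcription factors drive many replication genes through a short promoter element, so the promoters of the list were searched for its letters (TTTCCCGC or TTTGGCGC, on either strand) in the RefSeq promoter table, from 250 bases before to 50 after each gene's start. Of 10734 tested genes with a promoter there, 362 (3.37%) held these letters, and of 45 such members of the replication list, 13 did (28.9%). The 60 bases around a match are printed for 4 members that were called lower, in GRCm38.p6, 5′ to 3′ on the strand of the gene, with the E2F letters or their reverse complement in capitals. They lie at chr1:128359781-128359840 (reverse strand, Mcm6), chr11:98907988-98908047 (forward, Cdc6), chr8:75109335-75109394 (forward, Mcm5) and chr2:72476123-72476182 (forward, Cdca7, a regulator of DNA methylation and a known E2F and MYC target). The windows end 76, 104, 115 and 37 bases before the start, in the same order.
Mcm6: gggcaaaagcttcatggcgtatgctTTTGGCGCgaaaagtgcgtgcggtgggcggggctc
Cdc6: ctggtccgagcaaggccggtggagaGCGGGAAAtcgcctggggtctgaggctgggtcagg
Mcm5: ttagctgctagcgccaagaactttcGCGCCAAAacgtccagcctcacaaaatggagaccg
Cdca7: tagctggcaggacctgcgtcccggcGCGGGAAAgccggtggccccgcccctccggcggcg

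Among the replication genes whose promoter held the letters, 9 of 13 were called lower, and 17 of the 32 without them were. Over all tested genes with a promoter, 21.0% of those with the letters were called lower and 12.7% higher, and 14.3% and 17.0% of those without. A match describes these letters in this window and nothing about binding.

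The regulators upstream of this step changed in both directions. Rb1, the retinoblastoma protein that restrains E2F, had 23.2, 31.1 and 35.7 TPM in Ddx10KD, against 7.40, 8.35 and 8.68 TPM in EGFPKD, a log2 change of 1.82 ± 0.18 with an adjusted p of 2.72e-06. Its relative Rbl2 averaged 6.51 ± 0.426 TPM in Ddx10KD and 2.62 ± 0.263 TPM in EGFPKD (1.26 ± 0.17). The kinase inhibitor Cdkn2b, which blocks cyclin D kinases, averaged 5.57 ± 0.239 TPM in Ddx10KD and 1.58 ± 0.0802 TPM in EGFPKD (1.75 ± 0.20), and like Rb1 and Rbl2 it had no overlap between groups. Myc, a driver of growth and cell cycle genes, was lower at 60.9, 53.7 and 59.6 TPM in Ddx10KD, against 95.0, 78.0 and 93.2 TPM in EGFPKD (-0.67 ± 0.07, adjusted p 5.63e-06). Its relative Mycn was higher (0.42), as was Mxd4, a MYC antagonist (1.09). Cyclins D2 and D3 (Ccnd2 -0.53, Ccnd3 -0.68) and their kinase Cdk6 (-0.59) were lower. In all, 8 of 31 tested cyclins, kinases and inhibitors were called higher and 8 lower. In the p53 or ATF4 lists are 1 of the higher and 1 of the lower members.

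Genes of G2 and mitosis were called in shares closer to the background. Of 47 tested, 5 were called higher and 6 lower, with a median log2 change of -0.01. With the block the counts were 7 and 15, and without EGFPKD replicate 3 they were 3 and 3. Cdk1, the mitotic kinase, changed by -0.31 and Plk1, a polo-like kinase, by -0.27, whereas Ccnf, an F-box cyclin, changed by 0.30 and the kinetochore motor Cenpe by 0.28. In the DNA repair list, 9 of 59 were called higher and 15 lower (12 and 23 with the block), and the lower count was 8 without Ddx10KD replicate 1 and 8 without EGFPKD replicate 3. Xrcc1, the scaffold of single-strand break repair, rose to 132 ± 4.45 TPM in Ddx10KD, against 82.4 ± 2.49 TPM in EGFPKD (0.63 ± 0.07). Trp53bp1, which protects broken ends, changed by 0.50 and the checkpoint kinase Atr by 0.42. Its effector Chek1 was lower (-0.29), as were Brca1 (-0.28), Brca2 (-0.24), the end sensors Mre11a (-0.27) and Nbn (-0.31), and Xrcc6 of the Ku dimer (-0.25). Histone H2afz, a replacement variant expressed through the cell cycle, averaged 1342 ± 60.7 TPM in Ddx10KD and 1757 ± 95.6 TPM in EGFPKD (-0.45 ± 0.07). Most replication-dependent histone messages lack a poly(A) tail, and 29 histone genes passed the filter in these oligo-dT libraries, with 3 lower and none higher (1 without Ddx10KD replicate 3), and 22 lie in the shortest set.

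**Figure D2:**
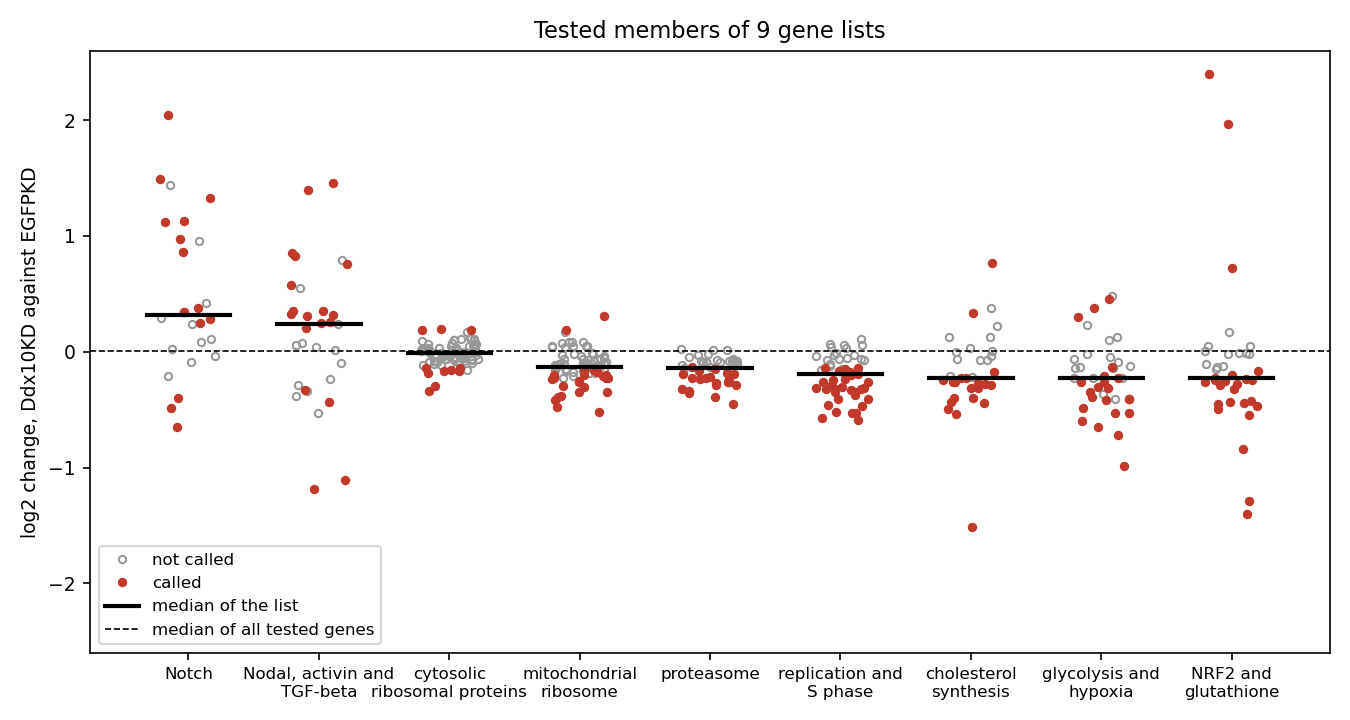
Fitted log2 change of every tested member of 9 gene lists, Ddx10KD against EGFPKD. Filled red points were called and open grey points were not, the bars are list medians (0.32 for Notch and -0.19 for replication and S phase) and the dashed line is the median of all tested genes. Ribosomal protein genes lie close to 0, and the replication, proteasome and metabolic lists lie mostly below it.

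The changes in the list closest to the known role of Ddx10 were small, apart from Ddx10 itself. Of 50 tested factors of small-subunit assembly, 2 were called higher and 16 lower, Ddx10 itself among the lower, and the median log2 change was -0.10. The blocked counts were 5 and 23. This list was sensitive to single libraries, with a lower count of 10 without Ddx10KD replicate 2, 7 without Ddx10KD replicate 3, 9 without EGFPKD replicate 1, 10 without EGFPKD replicate 2 and 10 without EGFPKD replicate 3. Noc4l, a nucleolar complex subunit, averaged 126 ± 7.02 TPM in Ddx10KD and 152 ± 4.17 TPM in EGFPKD (-0.33 ± 0.06). Bms1, a GTPase of the early subunit precursor, changed by -0.23, Aatf by -0.26 and the helicase Ddx47 by -0.23. Utp20, a large scaffold of the same precursor, went the other way, with 116, 109 and 124 TPM in Ddx10KD, against 91.6, 86.2 and 88.8 TPM in EGFPKD. Its groups did not overlap, and the log2 change was 0.33 ± 0.046 with an adjusted p of 5.88e-05. Pwp2, a scaffold of the UTP-B complex, was the other higher member (0.29).

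Large-subunit factors gave 3 higher and 14 lower of 52 (higher 6 and lower 16 with the block), with a median log2 change of -0.05. Senp3, a SUMO protease of the nucleolus, changed by -0.26, Tex10 and Las1l of the same rixosome complex by -0.28 and -0.20, and Ddx24, another DEAD-box helicase, by -0.34. Ccdc86 (0.36) and the AAA ATPase Spata5 (0.30) were higher. The proteins that build and carry small nucleolar ribonucleoproteins were lower in 9 of 19 cases and higher in none, with a median of -0.11 (2 higher and 11 lower with the block). Nop10, a core protein of the H/ACA particles, had 377, 371 and 364 TPM in Ddx10KD, against 527, 495 and 500.2 TPM in EGFPKD. Ruvbl1, an ATPase of the particle assembly machinery, had 193, 184 and 174 TPM in Ddx10KD, against 241, 244 and 236 TPM in EGFPKD. Both genes lay lower in every Ddx10KD library than in any EGFPKD library, which their choice required, with log2 changes of -0.51 ± 0.06 and -0.45 ± 0.07. Coil, the scaffold of Cajal bodies, changed by -0.48 and the nucleolar phosphoproteins Tcof1 and Nolc1 by -0.33 and -0.33. The core methylation proteins Fbl, Nop56 and Nop58 were not called (-0.06 ± 0.06, 0.09 ± 0.052 and -0.04 ± 0.06). With the block Nop56 was called (adjusted p 0.0422).

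In the RNA polymerase I list, 7 of 23 were lower and 1 higher (10 and 2 with the block, and 3 without Ddx10KD replicate 3 for the lower count), with 9 members in the shortest set. Polr1c, a subunit shared with RNA polymerase III, changed by -0.37, and Rrn3, the initiation factor that links the polymerase to its promoter, was the higher member (0.24). The ribosomal RNA precursor has no poly(A) tail and was not measured here.

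Ribosomal protein genes stayed close to the background median. Of 79 tested, 3 were called higher and 8 lower, with a median log2 change of -0.01, and 72 of them lie in the shortest set of transcripts. The blocked counts were 7 and 14. All 3 higher calls were lost without some single library, and the lower count was 3 without Ddx10KD replicate 1, 2 without Ddx10KD replicate 3 and 3 without EGFPKD replicate 2. Rpl3, of the large subunit, had 2342, 2326 and 2364 TPM in Ddx10KD, against 2777, 2957 and 2792 TPM in EGFPKD (-0.34 ± 0.052, adjusted p 1.49e-04), and Rps20, of the small subunit, changed by -0.29 ± 0.08. These 2 were the lower calls that held without any single library. Reads of ribosomal protein genes can be split with their many processed pseudogenes, so their values carry that uncertainty.

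Paralogues of ribosomal proteins included larger changes. Rpl22l1, the paralogue of Rpl22, had 108, 81.6 and 93.0 TPM in Ddx10KD, against 291, 255 and 257 TPM in EGFPKD. No library of either group reached the range of the other, and the log2 change of -1.57 ± 0.12 (adjusted p 1.82e-07) was the second largest decrease after Ddx10 under the naming rule for genes of at least 5 TPM. Rpl22 itself was not called (-0.03 ± 0.06). Rps27l, a paralogue of Rps27, rose to 529 ± 4.86 TPM in Ddx10KD, against 369 ± 12.7 TPM in EGFPKD (0.46 ± 0.06). Rpl36al and Rpl7l1 were lower (-0.319 and -0.31), which makes 3 lower and 1 higher of 10 tested paralogues, 8 of them in the shortest set.

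Translation factors were lower in 19 of 49 cases and higher in 3, with a median log2 change of -0.13. The lower count was 10 without Ddx10KD replicate 3, and 31 with the block. Eif4b, which helps the cap-bound helicase unwind messages, had 404, 366 and 368 TPM in Ddx10KD, against 474, 466 and 459 TPM in EGFPKD (-0.36 ± 0.04). Pabpc4, a poly(A)-binding protein, changed by -0.41, the initiation factor 3 subunit Eif3d by -0.325 and the exchange factor Eef1b2 by -0.24. Eif5, which triggers release of the initiator complex, was higher at 318, 331 and 317 TPM in Ddx10KD, against 261, 238 and 233 TPM in EGFPKD (0.34 ± 0.06). All of these were separated between groups.

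Mitochondrial ribosomal proteins and the respiratory chain were lower in part. Of 77 tested mitochondrial ribosomal proteins, 23 were called lower and 2 higher (median -0.13, and 40 and 3 with the block). Of 75 genes of the respiratory chain, 21 were lower and 3 higher (median -0.08, and 8 higher and 29 lower with the block). Short transcripts dominate both lists, 58 and 65 members lying in the shortest set. The lower count of the first was 12 without Ddx10KD replicate 3 and 13 without EGFPKD replicate 1, and the higher count of the second 1 without Ddx10KD replicate 2 and 1 without EGFPKD replicate 1. Mrpl12, which also binds the mitochondrial RNA polymerase, averaged 246 ± 7.92 TPM in Ddx10KD and 311 ± 22.9 TPM in EGFPKD (-0.39 ± 0.053). Sdhd, a membrane anchor of complex II, changed by -0.50 ± 0.050 and Uqcrh, the hinge protein of complex III, by -0.49 ± 0.08. Mrps17 was a higher member (0.31).

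All called members of the proteasome list were lower. Of 43 tested genes 21 were lower and none higher, with a median of -0.14, 30 members in the shortest set, and a lower count of 13 without Ddx10KD replicate 3. Psmd3 and Psmd7, subunits of the regulatory lid, changed by -0.39 ± 0.052 and -0.46 ± 0.08, and the core ring subunits Psma1, Psma2 and Psma7 by -0.35, -0.34 and -0.318. Psmd7 had 233, 198 and 204 TPM in Ddx10KD, against 289, 290.1 and 258 TPM in EGFPKD. The ranges were apart.

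Chaperone genes were lower in part, with 16 of 40 lower and 2 higher (median -0.13, lower count 10 without Ddx10KD replicate 3). Hspa8, the constitutive Hsp70, was the called gene with the largest loss of TPM under the naming rule, at 6245, 6052 and 5964 TPM in Ddx10KD, against 7332, 7135 and 7347 TPM in EGFPKD (-0.31 ± 0.06). Hsp90aa1, a cytosolic Hsp90, changed by -0.28, its activator Ahsa1 by -0.37, and the mitochondrial pair Hspd1 and Hspe1 by -0.30 and -0.28. Hspa4l, a nucleotide exchange factor of the Hsp110 family, was higher (0.66). Under endoplasmic reticulum stress genes, 5 of 31 were higher and 6 lower (9 and 10 with the block, higher 3 without Ddx10KD replicate 3, 3 without EGFPKD replicate 1 and 3 without EGFPKD replicate 2, and lower 3 without Ddx10KD replicate 3 and 3 without EGFPKD replicate 1). Herpud1, which helps to clear misfolded proteins from that compartment, changed by -1.14 ± 0.13, whereas the lectin chaperone Canx averaged 596 ± 42.6 TPM in Ddx10KD and 434 ± 34.8 TPM in EGFPKD (0.40 ± 0.09). Hspa5, its main Hsp70, was not called (-0.14 ± 0.09). It was called with the block (adjusted p 0.0110).

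In splicing, 14 of 61 were lower and 5 higher, and with the block 24 and 7. Without single libraries the lower count was 8 without Ddx10KD replicate 3 and the higher count 3 without Ddx10KD replicate 1, 2 without Ddx10KD replicate 2, 3 without EGFPKD replicate 1, 3 without EGFPKD replicate 2 and 3 without EGFPKD replicate 3. Snrpa1 of the U2 particle averaged 122 ± 12.8 TPM in Ddx10KD and 161 ± 17.5 TPM in EGFPKD (-0.46 ± 0.09), and Sf3a1 changed by -0.34 and Snrnp70 of the U1 particle by -0.26. The regulators Ptbp2, known for its role in neurons, and Mbnl2 were higher (0.52 and 0.53). Among factors that act on R-loops, the RNA-DNA hybrids named in the title of the series, 5 of 29 were higher and 2 lower (10 and 5 with the block, for the higher count 3 without Ddx10KD replicate 3 and 3 without EGFPKD replicate 2, and for the lower count 0 without Ddx10KD replicate 3 and 0 without EGFPKD replicate 1). Thoc6, of the THO export complex, averaged 138 ± 2.32 TPM in Ddx10KD and 78.6 ± 2.38 TPM in EGFPKD (0.75 ± 0.07), Top3b, a topoisomerase that acts on RNA and DNA, changed by 0.72 ± 0.09, and the helicase Aqr by 0.29 ± 0.052. The hybrid-cleaving enzyme Rnaseh1 was not called (-0.02 ± 0.07).

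Genes of sugar breakdown were lower in part. Of 39 tested genes of glycolysis and the hypoxia response 19 were lower and 3 higher, with a median log2 change of -0.23, and the lower count was 12 without Ddx10KD replicate 3. Tpi1, triose phosphate isomerase, had 443, 394 and 369 TPM in Ddx10KD, against 633, 626 and 558 TPM in EGFPKD. Slc16a1, which moves lactate across the membrane, had 59.7, 48.7 and 58.8 TPM in Ddx10KD, against 81.2, 71.7 and 79.3 TPM in EGFPKD. In each case all Ddx10KD values were under all EGFPKD values, and the log2 changes were -0.65 ± 0.10 and -0.53 ± 0.10. Hexokinase Hk2 changed by -0.31, phosphofructokinase Pfkp by -0.53, aldolase Aldoa by -0.39, Pgk1 by -0.40, Pgam1 by -0.34, the enolase Eno3 by -0.98, pyruvate kinase Pkm by -0.21 and lactate dehydrogenase Ldha by -0.41. The glucose transporter Slc2a1 stood against them, at 538, 553 and 545 TPM in Ddx10KD and 439, 441 and 396 TPM in EGFPKD (0.30 ± 0.054, adjusted p 6.10e-04). It was the sole higher call of the list that held without any single library.

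The pentose phosphate and antioxidant genes, many of them targets of NRF2, were lower in 21 of 36 cases and higher in 3, with a median of -0.23 and a lower count of 13 without Ddx10KD replicate 3. The shortest set holds 17 of them, and 1 of the lower members is in the p53 or ATF4 lists. Pgd, which makes NADPH in the pentose phosphate route, averaged 136 ± 8.52 TPM in Ddx10KD and 191 ± 7.42 TPM in EGFPKD (-0.55 ± 0.053), and transketolase Tkt changed by -0.44 ± 0.04. The quinone reductase Nqo1 changed by -0.50, catalase Cat by -0.46 and mitochondrial superoxide dismutase Sod2 by -0.45. Metallothionein Mt1, which binds zinc and copper, had 149, 167 and 130.5 TPM in Ddx10KD, against 351, 396 and 300.01 TPM in EGFPKD (-1.29 ± 0.20), and Mt2 changed by -0.84. The 3 higher members were well apart from this: the secreted peroxidase Gpx3 rose to 95.3 ± 18.1 TPM in Ddx10KD, against 17.3 ± 3.40 TPM in EGFPKD (2.40 ± 0.25). The epoxide hydrolase Ephx1 rose to 53.4 ± 8.86 TPM in Ddx10KD, against 13.1 ± 1.49 TPM in EGFPKD (1.96 ± 0.221). Gsto1, a glutathione transferase, changed by 0.73.

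Sterol and lipid synthesis genes were lower as well. In the cholesterol list 18 of 33 were lower and 2 higher, with a median of -0.23 and a lower count of 9 without Ddx10KD replicate 2 and 10 without EGFPKD replicate 1. Srebf2, the transcription factor that drives the pathway, averaged 109 ± 6.77 TPM in Ddx10KD and 125 ± 3.12 TPM in EGFPKD (-0.26 ± 0.053). Fdps, which makes farnesyl pyrophosphate, changed by -0.40, Msmo1 by -0.49 and Ebp by -0.43. Abcg1, which exports cholesterol, rose to 12.7 ± 2.77 TPM in Ddx10KD, against 7.18 ± 0.965 TPM in EGFPKD (0.76 ± 0.17). In the fatty acid list 16 of 39 were lower and 4 higher (median -0.16, lower count 9 without Ddx10KD replicate 1, 9 without Ddx10KD replicate 2 and 9 without EGFPKD replicate 3). The desaturase Scd1 had 52.4, 44.3 and 53.8 TPM in Ddx10KD, against 81.2, 67.9 and 80.9 TPM in EGFPKD (-0.67 ± 0.14), and Acads, which starts the oxidation of short chains, changed by -0.52. Cpt1c, the neuronal carnitine palmitoyltransferase, rose to 52.8 ± 5.27 TPM in Ddx10KD, against 17.6 ± 1.42 TPM in EGFPKD (1.52 ± 0.12). Lpin1, a phosphatidate phosphatase, changed by 1.38 ± 0.14 and the nuclear receptor Ppard by 0.81 ± 0.10.

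Nucleotide synthesis was split. Of 43 genes 16 were lower and 6 higher, and 12 of the lower calls held without any single library. The salvage enzymes had the larger decreases, with Tk1, thymidine kinase, at 82.4, 75.8 and 77.9 TPM in Ddx10KD, against 118, 113 and 125 TPM in EGFPKD (-0.65 ± 0.06). Purine nucleoside phosphorylase Pnp changed by -0.68, Aprt by -0.60 and, in the new synthesis of purines, Atic by -0.49 and Paics by -0.33. Cad, which makes the first 3 steps of pyrimidine synthesis, was higher, at 189, 178 and 206 TPM in Ddx10KD and 141, 133 and 139 TPM in EGFPKD (0.42 ± 0.049). Its values did not overlap between groups. Ak1 and Prps2 were higher too (0.70 and 0.45), and the higher count was 3 without Ddx10KD replicate 2 and 3 without EGFPKD replicate 1. In polyamine and methionine metabolism, Azin2, an antizyme inhibitor, changed by 1.74 ± 0.27 and spermine oxidase Smox by 0.69 ± 0.13, while Amd1, which makes the aminopropyl donor, changed by -0.46 ± 0.10.

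Several brakes on mTORC1, the growth kinase, were higher. Of 41 tested genes of mTORC1 and insulin signalling 10 were higher and 3 lower (median 0.04, and 14 higher and 5 lower with the block). The longest set of transcripts, of which 24.4% were called higher, holds 21 of them, and 24.4% of the list was called higher, with 3 of the higher members in the p53 or ATF4 lists. Ddit4, an inhibitor upstream of the kinase, had 81.7, 64.1 and 98.2 TPM in Ddx10KD, against 26.7, 33.5 and 23.2 TPM in EGFPKD (1.48 ± 0.224). Sesn3 changed by 1.02 ± 0.12, the transcription factor Foxo3 by 0.94 ± 0.09, Deptor by 0.319 and Tsc2 by 0.21. Rragd, a GTPase of the amino acid branch, was lower (-0.73). Lysosome and autophagy genes changed in equal number each way, 13 higher and 13 lower of 63. Man2b1, a lysosomal mannosidase, averaged 55.2 ± 5.12 TPM in Ddx10KD and 20.7 ± 0.890 TPM in EGFPKD (1.35 ± 0.11), and the protease Ctsd changed by 0.43 ± 0.07. Tfeb, a master regulator of lysosomal genes, was lower (-0.55 ± 0.09), and its relative Tfe3 higher (0.215 ± 0.045).

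Signalling ligands and receptors included some of the widest separations between the groups. In the Wnt list 8 of 30 ligands and receptors were higher and 3 lower (11 and 4 with the block). Wnt5a, a ligand that acts mainly outside the beta-catenin route, had 5.43, 4.94 and 5.76 TPM in Ddx10KD, against 0.66, 0.46 and 0.82 TPM in EGFPKD. Wnt8a, a beta-catenin route ligand of the early embryo, had 4.11, 5.16 and 6.29 TPM in Ddx10KD, against 0.60, 0.50 and 0.66 TPM in EGFPKD. Wnt6 had 2.10, 2.11 and 2.34 TPM in Ddx10KD, against 0.69, 0.44 and 0.59 TPM in EGFPKD. All 3 ligands were low in EGFPKD and none of their values overlapped, with adjusted p of 2.60e-07, 2.24e-05 and 5.23e-05. Wnt3, the ligand of primitive streak formation, averaged 0.617 ± 0.227 TPM in Ddx10KD and 0.167 ± 0.0643 TPM in EGFPKD (1.79 ± 0.43). Wnt8b stayed under 1 TPM in all 6 libraries, at 0.22, 0.29 and 0.32 TPM in Ddx10KD and 0, 0.090 and 0.020 TPM in EGFPKD. Among the frizzled receptors, Fzd10 changed by 0.36 ± 0.09, while Fzd2 (-0.71 ± 0.14) and Fzd5 (-0.28 ± 0.07) were lower. The calls of Wnt3a, Wnt9a and Fzd1 were lost without at least 1 library. For Wnt3a (-1.07 ± 0.324) that was without Ddx10KD replicate 1 (0.0655), Ddx10KD replicate 3 (0.0718), EGFPKD replicate 2 (0.0801) or EGFPKD replicate 3 (0.0532), with the adjusted p in brackets.

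The genes by which cells read and damp Wnt signals were called in shares close to or under the background. Of 28 feedback genes and targets, 1 was higher and 5 were lower (4 and 5 with the block), that is 3.57% higher and 17.9% lower. Axin2, the usual readout of beta-catenin activity, averaged 12.7 ± 2.42 TPM in Ddx10KD and 14.0 ± 1.93 TPM in EGFPKD and was not called (-0.20 ± 0.15, adjusted p 0.337). Several secreted inhibitors were lower: Sfrp1, which binds Wnt ligands, had 14.2, 10.3 and 9.24 TPM in Ddx10KD, against 23.9, 22.3 and 20.6 TPM in EGFPKD (-1.04 ± 0.20). Notum, which removes the lipid that Wnt ligands need, averaged 52.7 ± 6.14 TPM in Ddx10KD and 72.9 ± 6.99 TPM in EGFPKD (-0.53 ± 0.10). Sfrp5 changed by -0.97, and Tcf7l1, the repressor at Wnt targets in stem cells, by -0.41 ± 0.09. Sp8 was the higher member, at 0.300 ± 0.05 TPM in Ddx10KD and 0.103 ± 0.0252 TPM in EGFPKD.

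**Figure D3:**
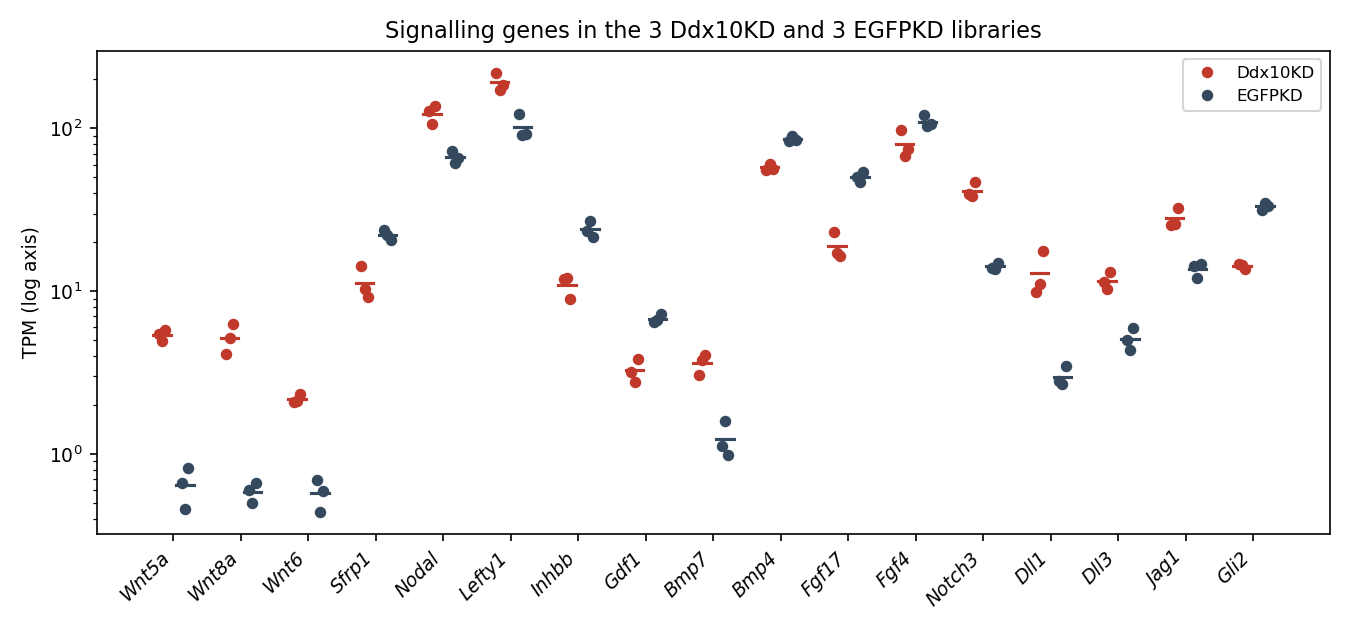
TPM on a log axis of 17 signalling genes in the 3 Ddx10KD (red, left) and 3 EGFPKD (dark blue, right) libraries, each point a library and each bar a group mean. Wnt5a, Wnt8a and Wnt6 lie under 1 TPM in every EGFPKD library and above 2 TPM in every Ddx10KD library, and Fgf17, Inhbb, Sfrp1 and Gli2 are lower in every Ddx10KD library than in any EGFPKD library.

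Nodal signalling, which keeps stem cells and early epiblast competent for mesendoderm, was higher in 14 of 31 cases and lower in 4, with a median of 0.24, and 7 of the higher calls held without any single library. The higher count was 9 without Ddx10KD replicate 3, 8 without EGFPKD replicate 2 and 9 without EGFPKD replicate 3. Among the 31 members, 10 lie in the longest set. The ligand Nodal had 127, 106 and 137 TPM in Ddx10KD, against 72.5, 61.5 and 65.6 TPM in EGFPKD. Its feedback inhibitor Lefty1 had 219.8, 173 and 185 TPM in Ddx10KD, against 123, 91.4 and 93.0 TPM in EGFPKD. The 2 genes moved alike and without overlap, by 0.83 ± 0.12 and 0.85 ± 0.17, whereas Lefty2 was not called (0.55 ± 0.221). Lefty2 was called with the block (adjusted p 7.54e-06). Of the receptors, Acvr2b changed by 0.33 and Tgfbr1 by 0.319, and the co-receptor Tgfbr3 averaged 1.01 ± 0.232 TPM in Ddx10KD and 0.350 ± 0.0624 TPM in EGFPKD (1.46 ± 0.24). Tgfb2 was low in both groups, at 0.603 ± 0.0950 TPM in Ddx10KD and 0.217 ± 0.0153 TPM in EGFPKD (1.40 ± 0.31). The activin subunit Inhbb fell to 11.9, 12.0 and 8.94 TPM in Ddx10KD, against 23.4, 26.9 and 21.5 TPM in EGFPKD (-1.19 ± 0.18, adjusted p 1.55e-04). Gdf1, a partner of Nodal in heterodimers, fell to 3.27 ± 0.528 TPM in Ddx10KD, against 6.78 ± 0.386 TPM in EGFPKD (-1.11 ± 0.16). The calls of Gdf3, Foxh1, Smad2, Acvr1b, Tgfbr2, Fst, Skil and Ltbp1 were each lost without at least 2 of the 6 libraries. For Foxh1, the DNA-binding partner of Smad2, it was lost without Ddx10KD replicate 1 (0.103), EGFPKD replicate 2 (0.107) or EGFPKD replicate 3 (0.0512).

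In the BMP list 5 of 25 were higher and 2 lower, and the higher count was 2 without Ddx10KD replicate 3, 3 without EGFPKD replicate 1 and 3 without EGFPKD replicate 3. The ligands went opposite ways. Bmp4, which supports self-renewal through Id genes, had 55.8, 60.9 and 56.1 TPM in Ddx10KD, against 83.9, 89.4 and 85.2 TPM in EGFPKD (-0.64 ± 0.12). Bmp7 had 3.04, 3.78 and 4.05 TPM in Ddx10KD, against 1.12, 1.59 and 0.98 TPM in EGFPKD (1.497 ± 0.25). Neither overlapped. Bmp8a was lower (-0.80 ± 0.21) and the effector Smad5 higher (0.46 ± 0.10), while the targets Id1, Id2 and Id3 were not called (-0.13 ± 0.16, 0.18 ± 0.16 and 0.18 ± 0.18). Id4, Smad1 and Twsg1 were called higher, each call lost without at least 2 libraries. For Id4 these included Ddx10KD replicate 1 (adjusted p 0.0857) and EGFPKD replicate 2 (0.112). For Id3 the block gave an adjusted p of 0.0498.

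FGF ligands and the feedback genes of ERK changed both ways, 9 of 35 higher and 7 lower (14 and 9 with the block). Fgf17, a ligand of the FGF8 subfamily, had 23.1, 17.3 and 16.4 TPM in Ddx10KD, against 50.3, 46.6 and 53.6 TPM in EGFPKD (-1.46 ± 0.18, adjusted p 2.24e-05). Fgf4, the ligand by which stem cells leave self-renewal, averaged 79.8 ± 15.6 TPM in Ddx10KD and 110.2 ± 9.70 TPM in EGFPKD (-0.52 ± 0.14), a call that was lost without Ddx10KD replicate 2 (0.0514). Fgf18 changed by -0.79 ± 0.17. The receptors Fgfr2 and Fgfr4 were higher (0.56 ± 0.11 and 1.04 ± 0.27), as were Phlda1, a pleckstrin-homology protein induced by ERK (1.003 ± 0.18), and Fosl1, an AP-1 subunit, with 2.72, 3.66 and 3.76 TPM in Ddx10KD, against 0.21, 0.54 and 0.43 TPM in EGFPKD. Of the feedback inhibitors, Spry2 (0.20) and Il17rd (0.27) were higher and Spred1 (-0.25) and Dusp14 (-0.73) lower, and Spry4, Dusp6 and Etv4 were not called (-0.33 ± 0.18, 0.051 ± 0.09 and 0.02 ± 0.11). Spry4 was called with the block (adjusted p 8.63e-06).

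Notch signalling, a cell-contact pathway, had 12 of 26 members higher and 3 lower and a median of 0.32, and 8 of the higher calls held without any single library. The longest set holds 8 of these 26. The receptor Notch3 had 39.5, 38.3 and 46.8 TPM in Ddx10KD, against 13.8, 13.8 and 14.9 TPM in EGFPKD (1.49 ± 0.11, adjusted p 1.49e-07). The ligand Dll1 had 9.92, 11.02 and 17.7 TPM in Ddx10KD, against 2.79, 2.68 and 3.49 TPM in EGFPKD (2.05 ± 0.27). Receptor and ligand were thus higher in every Ddx10KD library, and the other ligands followed. Dll3, a ligand-like inhibitor, changed by 1.12 ± 0.15, Jag1 by 0.97 ± 0.14 and Jag2 by 0.86 ± 0.13. Hes6, which opposes Hes1, changed by 1.13 ± 0.19 and Hey2, a target repressor, by 1.33 ± 0.323. The targets Hes1, Hey1 and Nrarp were not called (-0.09 ± 0.09, 0.03 ± 0.217 and 0.29 ± 0.14). Rbpj, the DNA-binding partner of Notch, was lower at 160.3 ± 4.43 TPM in Ddx10KD, against 203 ± 2.87 TPM in EGFPKD (-0.40 ± 0.06), and Notch4 changed by -0.65 ± 0.09. Calls of Notch1, Lfng, Mfng and Numbl were lost without at least 1 library.

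In the Hedgehog list the Gli2 activator had 14.7, 14.5 and 13.7 TPM in Ddx10KD, against 31.4, 35.0 and 33.2 TPM in EGFPKD (-1.27 ± 0.12, adjusted p 1.15e-06). No value of 1 group fell in the range of the other. The 3 higher calls (Gli3, Cdon and Ihh) of 16 tested members were each lost without at least 2 libraries, and the targets Ptch1 and Gli1 were not called (0.02 ± 0.06 and -0.20 ± 0.09). The block gave a call for Gli1 (adjusted p 0.00131). Among the 16 Hedgehog members, 6 lie in the longest set. Of 23 retinoic acid genes, Meis1 was higher at 1.34 ± 0.165 TPM in Ddx10KD and 0.420 ± 0.104 TPM in EGFPKD (1.61 ± 0.23). The list had 1 higher and 1 lower (4 higher and 2 lower with the block). Stra8, a germ cell gene named for its induction by retinoic acid, was lower (-1.33 ± 0.37), with the call lost without Ddx10KD replicate 1 (0.0546) or EGFPKD replicate 2 (0.0984). In the YAP list 9 of 24 were higher and 1 lower (11 and 5 with the block), with 10 members in the longest set. The phosphatase Ptpn14 changed by 2.36 ± 0.14, Amotl1 by 0.93 ± 0.11 and Tead1 by 0.39 ± 0.07, Tead4 by -0.88 ± 0.11, and the usual reporters Ctgf and Cyr61 were not called (0.27 ± 0.29 and 1.07 ± 0.41). Both were called with the block (adjusted p 0.0232 and 6.34e-07).

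Axon guidance families, which also set cell boundaries in the early embryo, were higher in 22 of 61 cases and lower in 8, with a median of 0.20 and 32 members in the longest set of transcripts. Of the 22 higher members, 1 is in the p53 or ATF4 lists. The lower count was 5 without Ddx10KD replicate 1, 5 without Ddx10KD replicate 3 and 5 without EGFPKD replicate 3. Epha2, an ephrin receptor, had 121, 119 and 138 TPM in Ddx10KD, against 59.1, 60.7 and 67.3 TPM in EGFPKD (0.95 ± 0.08). The semaphorin Sema6a changed by 2.20 ± 0.30, the semaphorin receptor Plxna1 by 0.70 ± 0.08, the ephrin Efnb1 by 0.84 ± 0.15 and Slit1 by 2.19 ± 0.52. Ntn1, netrin 1, was lower at 27.8 ± 2.65 TPM in Ddx10KD, against 50.3 ± 5.24 TPM in EGFPKD (-0.91 ± 0.11), as was Sema4a (-0.79 ± 0.11).

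Naive pluripotency genes were lower in 12 of 31 cases and higher in 1, with a median of -0.14 (16 and 4 with the block). Klf2, a naive network factor, averaged 451 ± 19.14 TPM in Ddx10KD and 549 ± 42.8 TPM in EGFPKD (-0.34 ± 0.07). Klf5 changed by -0.38 ± 0.08, Tfcp2l1 by -0.33 ± 0.08 and the nuclear receptor Nr0b1 by -0.45 ± 0.08. Esrrb, Klf4, Tbx3 and Prdm14, of the same network, were not called (-0.20 ± 0.08, 0.08 ± 0.15, -0.16 ± 0.27 and -0.11 ± 0.10). The block gave calls for Esrrb and Tbx3 (adjusted p 3.40e-04 and 0.0171).

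The formative genes split. Otx2, a transcription factor of the early epiblast, had 63.1, 53.2 and 75.5 TPM in Ddx10KD, against 26.2, 18.0 and 23.1 TPM in EGFPKD (1.45 ± 0.18, adjusted p 2.01e-05). Pou3f1, which promotes neural fate, had 32.2, 22.6 and 36.6 TPM in Ddx10KD, against 10.96, 7.22 and 12.3 TPM in EGFPKD (1.53 ± 0.24). These values did not overlap, and Sall2 (1.04), Dnmt3a (0.53) and N-cadherin Cdh2 (0.51) were higher with them. Pax6, a neural and eye factor, was lower at 2.66, 2.59 and 2.10 TPM in Ddx10KD, against 4.92, 3.72 and 6.08 TPM in EGFPKD (-1.08 ± 0.23), and Dnmt3l, the partner of the new-methylation enzymes, changed by -0.34. In all 8 of 27 were higher and 6 lower, and the lower count was 2 without Ddx10KD replicate 2, 2 without Ddx10KD replicate 3, 2 without EGFPKD replicate 1 and 3 without EGFPKD replicate 3.

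**Figure D4:**
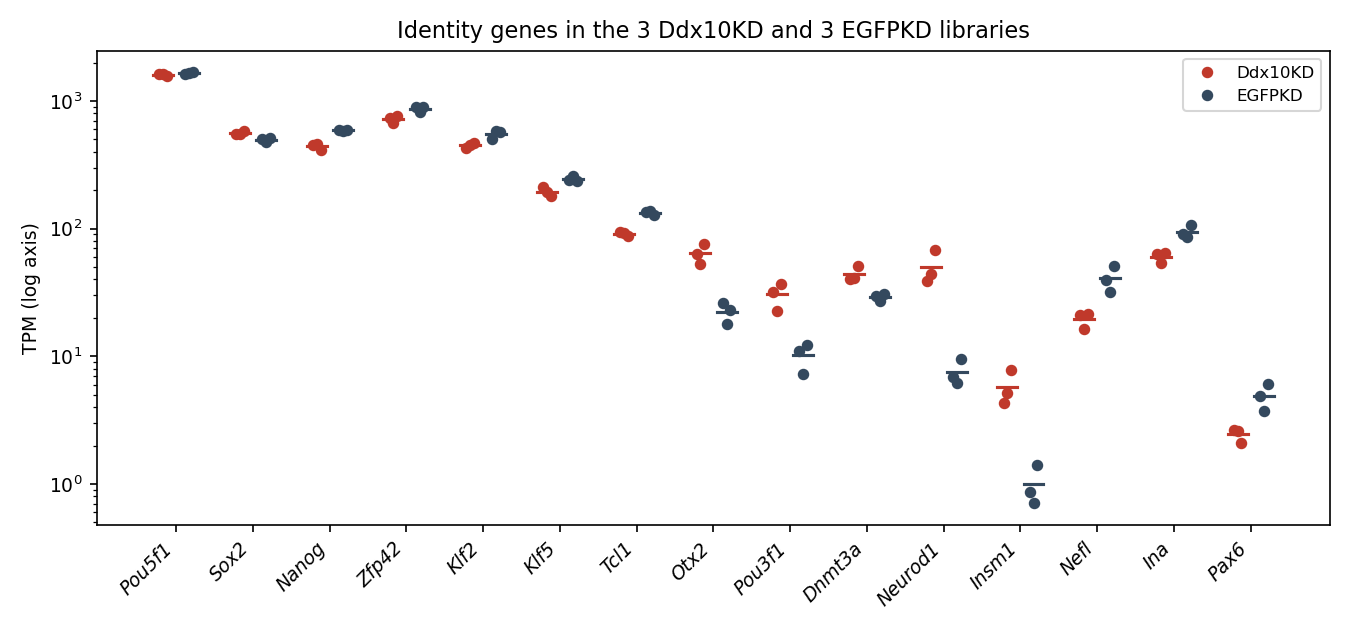
TPM on a log axis of 15 identity genes in the 3 Ddx10KD (red, left) and 3 EGFPKD (dark blue, right) libraries, each point a library and each bar a group mean. Otx2, Pou3f1, Neurod1 and Insm1 are higher in every Ddx10KD library, Nefl, Ina and Pax6 are lower, and Pou5f1 and Sox2, which were called with the replicate block but not without it (adjusted p 0.0279 and 0.0157), lie at similar levels in the groups.

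Neuronal genes changed in both directions. The transcription factors Neurod1 and Insm1, which start neuronal and endocrine differentiation, were higher, with Neurod1 at 39.1, 43.8 and 68.3 TPM in Ddx10KD, against 6.90, 6.17 and 9.52 TPM in EGFPKD. Insm1 had 4.33, 5.15 and 7.81 TPM in Ddx10KD, against 0.87, 0.71 and 1.41 TPM in EGFPKD. Among structural and RNA-binding genes of neurons, the neurofilament Nefl had 21.1, 16.5 and 21.4 TPM in Ddx10KD, against 40.0, 32.1 and 50.7 TPM in EGFPKD (-1.12 ± 0.13). The related filament Ina changed by -0.70 ± 0.11, the RNA-binding Elavl3 by -0.70 ± 0.12 and the tubulin Tubb3 by -0.47 ± 0.12. The homeodomain factor Pou4f2 was lower too (-1.18), while its relative Pou4f1 was higher (0.76). The whole list had 8 higher and 10 lower of 28, with a higher count of 5 without EGFPKD replicate 2.

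Mesoderm and endoderm genes changed at low levels. Kdr, the VEGF receptor of early mesoderm and endothelium, averaged 4.06 ± 1.90 TPM in Ddx10KD and 1.20 ± 0.264 TPM in EGFPKD (1.70 ± 0.40), and Mesp2, a somite factor, averaged 2.73 ± 0.161 TPM in Ddx10KD and 1.15 ± 0.243 TPM in EGFPKD (1.19 ± 0.20). The streak genes T, Eomes and Mixl1 were not called (-0.28 ± 0.38, -0.20 ± 0.17 and -0.67 ± 0.35). Of 19 streak and mesoderm genes 4 were higher and 1 lower (4 and 3 with the block, and 3 lower without Ddx10KD replicate 1). In the endoderm list 5 of 28 were higher and 6 lower, the higher count being 3 without Ddx10KD replicate 2 and 3 without EGFPKD replicate 1. The nuclear receptor Hnf4a reached 1.08 ± 0.251 TPM in Ddx10KD, against 0.297 ± 0.0252 TPM in EGFPKD (1.77 ± 0.28), and the laminins Lama1 and Lamc1 of the basement membrane were lower (-0.37 and -0.31). Tek, an angiopoietin receptor of endothelium, had 11.6, 14.7 and 19.4 TPM in Ddx10KD, against 4.10, 5.14 and 5.57 TPM in EGFPKD (1.56 ± 0.219). Further endothelial markers were higher as well. Pecam1, an adhesion molecule of endothelium that mouse embryonic stem cells express too, had 77.7, 95.2 and 93.1 TPM in Ddx10KD, against 60.6, 70.9 and 68.4 TPM in EGFPKD (0.36 ± 0.12), a call lost without Ddx10KD replicate 2 (0.143), Ddx10KD replicate 3 (0.0973), EGFPKD replicate 1 (0.144) or EGFPKD replicate 3 (0.0708). Cd34, of blood progenitors and endothelium, had 4.51, 4.39 and 6.20 TPM in Ddx10KD, against 3.09, 3.23 and 3.53 TPM in EGFPKD (0.56 ± 0.14), a call lost without Ddx10KD replicate 3 (0.0578). Tie1 was not called (0.321 ± 0.40), and Cdh5 and Emcn did not pass the filter, and the part of endothelial cells in these results was not tested.

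Imprinted genes were higher in 8 and lower in 3 of 39 cases (10 and 8 with the block, and a higher count of 4 without Ddx10KD replicate 3). Those shares without the block were 20.5% and 7.69%, against 16.5% and 14.5% of all tested genes, so the higher share lay close to the background. The longest set holds 12 of these 39. Cd81, a tetraspanin, rose to 243 ± 5.69 TPM in Ddx10KD, against 136 ± 5.54 TPM in EGFPKD (0.78 ± 0.06). The paternally expressed Peg3 and Sgce changed by 0.69 ± 0.15 and 1.22 ± 0.23. Phlda2, a maternally expressed brake on placental growth, had 154, 114 and 126 TPM in Ddx10KD, against 236, 249.99 and 243 TPM in EGFPKD (-0.95 ± 0.11). Mest changed by -0.63 ± 0.10. Zfp57, which protects imprints, was lower (-0.43 ± 0.07), as was its partner Trim28 at 1503 ± 51.9 TPM in Ddx10KD, against 1830.1 ± 67.8 TPM in EGFPKD (-0.34 ± 0.049). In the DNA methylation list 2 of 20 were higher and 6 lower (4 higher and 7 lower with the block), and Dnmt1, the maintenance enzyme, and Tet1 were not called (0.02 ± 0.03 and 0.08 ± 0.07). Polycomb and Trithorax genes gave 8 higher and 8 lower of 39. Bmi1, a subunit of Polycomb complex 1, averaged 4.82 ± 0.775 TPM in Ddx10KD and 2.21 ± 0.377 TPM in EGFPKD (1.07 ± 0.17), and Phc2 changed by 0.61, while Kdm2b and Pcgf6 of variant complexes were lower (-0.31 and -0.316). Ezh2 and Suz12 of complex 2 were not called (-0.03 ± 0.08 and 0.04 ± 0.12). Among germline genes that methylation usually silences, Hormad1, a meiotic chromosome protein, rose to 34.2 ± 5.63 TPM in Ddx10KD, against 14.6 ± 0.970 TPM in EGFPKD (1.18 ± 0.15). In that list 5 of 37 were higher and 3 lower (8 and 6 with the block), and the higher count was 3 without Ddx10KD replicate 2, 3 without Ddx10KD replicate 3 and 3 without EGFPKD replicate 3. The shortest set holds 13 of these 37.

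Innate immune genes were lower in part. Of 33 tested genes of the interferon response 14 were lower and 2 higher (5 higher and 14 lower with the block), and the lower count was 6 without Ddx10KD replicate 2, 9 without Ddx10KD replicate 3, 9 without EGFPKD replicate 1 and 8 without EGFPKD replicate 3. Ddx58, the sensor RIG-I, had 32.0, 26.7 and 32.1 TPM in Ddx10KD, against 48.4, 42.9 and 51.5 TPM in EGFPKD (-0.71 ± 0.10). Oas1a, an oligoadenylate synthetase, had 15.9, 15.4 and 15.9 TPM in Ddx10KD, against 25.01, 30.2 and 27.9 TPM in EGFPKD (-0.87 ± 0.09). In both, the highest Ddx10KD value was under the lowest EGFPKD value. The adaptor Mavs and the editing enzyme Adar changed by -0.27 ± 0.06 and -0.27 ± 0.06. The classical targets Ifit1 and Rsad2 were not called (0.84 ± 0.58 and 0.06 ± 0.44). Mov10, an antiviral RNA helicase, was lower at 92.4, 73.7 and 74.6 TPM in Ddx10KD, against 179, 165 and 178 TPM in EGFPKD (-1.17 ± 0.12). In antigen presentation 3 of 20 were higher and 5 lower, with 8 members in the shortest set, and 1 of the higher members is in the p53 or ATF4 lists. The peptide transporter Tap1 had 6.15, 6.67 and 7.82 TPM in Ddx10KD, against 1.67, 1.44 and 1.42 TPM in EGFPKD (2.13 ± 0.221). The class I heavy chain H2-D1 and its partner B2m changed by -0.63 ± 0.11 and -0.68 ± 0.17, and class I genes are near-identical copies whose reads can be split. Cd74, the invariant chain of class II, had 3.76, 2.50 and 2.66 TPM in Ddx10KD, against 7.01, 7.62 and 7.82 TPM in EGFPKD (-1.41 ± 0.17). The cytokine Lif, which maintains mouse embryonic stem cells, averaged 7.56 ± 1.31 TPM in Ddx10KD and 2.64 ± 0.240 TPM in EGFPKD (1.46 ± 0.21).

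Matrix and protease genes held several of the largest increases. Serpine2, an inhibitor of thrombin and urokinase, had 57.7, 66.2 and 74.1 TPM in Ddx10KD, against 6.66, 7.46 and 7.01 TPM in EGFPKD. Sdc4, a heparan sulfate proteoglycan of adhesions, had 115, 138 and 176 TPM in Ddx10KD, against 25.5, 26.8 and 28.1 TPM in EGFPKD. The groups were far apart in both genes, and the log2 change of Sdc4 was 2.35 ± 0.18 with an adjusted p of 2.60e-07. The proteoglycan Vcan changed by 1.21 ± 0.13, the glypican Gpc4 by 0.88 ± 0.10 and the membrane protease St14 by 0.95 ± 0.10. Among 45 proteases and inhibitors 11 were higher and 4 lower (14 and 9 with the block, lower 2 without Ddx10KD replicate 3), and 10 of the higher calls held without any single library. Of 58 matrix genes 14 were higher and 7 lower, 37 of them in the longest set, with a higher count of 8 without EGFPKD replicate 1. In junctions 13 of 49 were higher and 8 lower (20 and 15 with the block, and a higher count of 8 without EGFPKD replicate 1). The longest set holds 17 of these 49. P-cadherin Cdh3 averaged 60.1 ± 7.56 TPM in Ddx10KD and 32.7 ± 3.69 TPM in EGFPKD (0.82 ± 0.10) and the gap junction protein Gja1 changed by 0.54 ± 0.07. Itga9, an integrin, was lower (-1.03 ± 0.12), and E-cadherin Cdh1 was not called (0.13 ± 0.048). Cdh1 was called with the block (adjusted p 0.0130).

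Cytoskeletal genes were lower more often than higher, with 17 of 49 lower and 4 higher (26 and 7 with the block, higher 2 without Ddx10KD replicate 2), and 19 of them lie in the shortest set. Vim, the mesenchymal intermediate filament, had 195, 211 and 207 TPM in Ddx10KD, against 286, 302 and 309 TPM in EGFPKD (-0.61 ± 0.07). The galectin Lgals3 had 37.0, 34.0 and 33.0 TPM in Ddx10KD, against 59.4, 67.5 and 68.6 TPM in EGFPKD (-0.97 ± 0.11). Neither overlapped between groups. Cytoplasmic actin Actg1 averaged 3036 ± 93.8 TPM in Ddx10KD and 3736 ± 235 TPM in EGFPKD (-0.36 ± 0.048), and annexins Anxa2 and Anxa6 changed by -0.74 and -0.57. The actin-binding Cald1 (1.28 ± 0.17) and Anxa8 (2.31 ± 0.24) were higher. Of 56 ion channel genes 16 were higher and 5 lower, 24 of them in the longest set, the higher count being 10 without Ddx10KD replicate 3 and the lower count 3 without Ddx10KD replicate 2 and 3 without EGFPKD replicate 3. P2rx7, an ATP-gated channel, had 6.51, 7.63 and 8.27 TPM in Ddx10KD, against 2.28, 2.64 and 2.32 TPM in EGFPKD (1.58 ± 0.18), and the sodium channel subunit Scn3b changed by 2.01 ± 0.25.

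Several large changes lay outside these lists. The p53 and ATF4 lists held 40 and 44 genes, so a gene outside them may still be a target of either, which was not tested. Rtkn had 25.3, 30.1 and 28.7 TPM in Ddx10KD, against 3.64, 4.89 and 4.21 TPM in EGFPKD (2.66 ± 0.19). Ptp4a3, a phosphatase of the cell membrane, had 85.3, 103 and 116 TPM in Ddx10KD, against 19.3, 22.7 and 23.6 TPM in EGFPKD (2.16 ± 0.15). Trp73, a p53 relative, had 7.34, 9.76 and 12.2 TPM in Ddx10KD, against 1.48, 2.22 and 2.02 TPM in EGFPKD (2.30 ± 0.24). In none of these did the groups overlap. Zfp365 averaged 46.4 ± 8.46 TPM in Ddx10KD and 9.69 ± 1.06 TPM in EGFPKD (2.20 ± 0.17). The homeobox gene Nkx2-9 changed by 2.11 ± 0.18, the melanosome gene Mlana by 2.12 ± 0.26 and the vesicle protein Sytl1 by 2.38 ± 0.31. Among decreases, Hopx, a homeodomain protein without DNA binding, changed by -1.47 ± 0.25, the atrial myosin light chain Myl7 by -1.36 ± 0.23, the keratin Krt17 by -1.32 ± 0.18 and Gpt2, which makes alanine from pyruvate, by -1.16 ± 0.09. Among genes outside the p53 and ATF4 lists, the largest gain in TPM that held without any single library was in Erdr1, at 891 ± 44.2 TPM in Ddx10KD and 672 ± 40.2 TPM in EGFPKD, a gene that lies in a repeated region of the sex chromosomes.

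The authors' deposited table for Ddx10KD listed 18681 genes, of which 3194 had a posterior probability of differential expression of at least 0.95. Of those, 3192 were tested here, and 2966 were called, all 2966 in the direction of the fold change in the authors' deposited table. All 4438 genes called here were listed by the authors, and 2966 of them had a probability of at least 0.95. Some genes named above were far below it, such as Acvr2b (1.74e-08), Bmp8a (4.05e-10), Tgfb2 (3.49e-07) and Mavs (4.10e-04).

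Ddx10KD was then compared with the mean of Ddx24KD, Ddx27KD and Ddx54KD, which asks how the depletion of Ddx10 differed from that of the other 3 helicases and uses no EGFPKD library. In this comparison 224 of 14335 genes were called (1.56%), with 109 higher (0.760%) and 115 lower (0.802%) in Ddx10KD, while 2139 had an unadjusted p under 0.05. The count depended on the fit. It was 98, 35 and 50 without Ddx10KD replicate 1, 2 and 3, 455 by DESeq2 and 1488 with the replicate block (5.08% higher and 5.30% lower). Of the 224 genes, 124 were also called against EGFPKD, in a comparison that shares the Ddx10KD libraries. Ddx10, Ddx27 and Ddx54 are among the named genes as the targets of the knockdowns, and describe the design.

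Some genes changed in Ddx10KD and stayed near the EGFPKD level in the other knockdowns. Rnf10, a ubiquitin ligase, averaged 197 ± 17.2 TPM in Ddx10KD, 279.7 ± 5.94 in Ddx24KD, 292 ± 13.8 in Ddx27KD, 270.2 ± 15.8 in Ddx54KD and 271 ± 6.91 in EGFPKD. Its log2 difference from the other knockdowns was -0.55 ± 0.047 with an adjusted p of 9.89e-06. Cox7a2l, which helps respiratory complexes join into supercomplexes, averaged 119 ± 5.67 TPM in Ddx10KD, 180.2 ± 21.3 in Ddx24KD, 184 ± 4.90 in Ddx27KD, 182 ± 9.53 in Ddx54KD and 169.9 ± 6.59 in EGFPKD (-0.65 ± 0.06, adjusted p 3.84e-05). Both were lowest in Ddx10KD. Foxk2, a forkhead factor, averaged 39.5 ± 3.99 TPM in Ddx10KD, 26.5 ± 1.54 in Ddx24KD, 28.8 ± 3.47 in Ddx27KD, 25.2 ± 2.07 in Ddx54KD and 27.5 ± 0.178 in EGFPKD (0.52 ± 0.06, adjusted p 1.24e-04). Usp11, a deubiquitinase, averaged 26.2 ± 3.24 TPM in Ddx10KD, 16.6 ± 2.77 in Ddx24KD, 18.2 ± 1.95 in Ddx27KD, 17.6 ± 1.09 in Ddx54KD and 16.3 ± 1.11 in EGFPKD (0.55 ± 0.08, adjusted p 0.00353). These 2 were highest in Ddx10KD, and all 4 calls held without any 1 of the 3 Ddx10KD libraries.

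**Figure D5:**
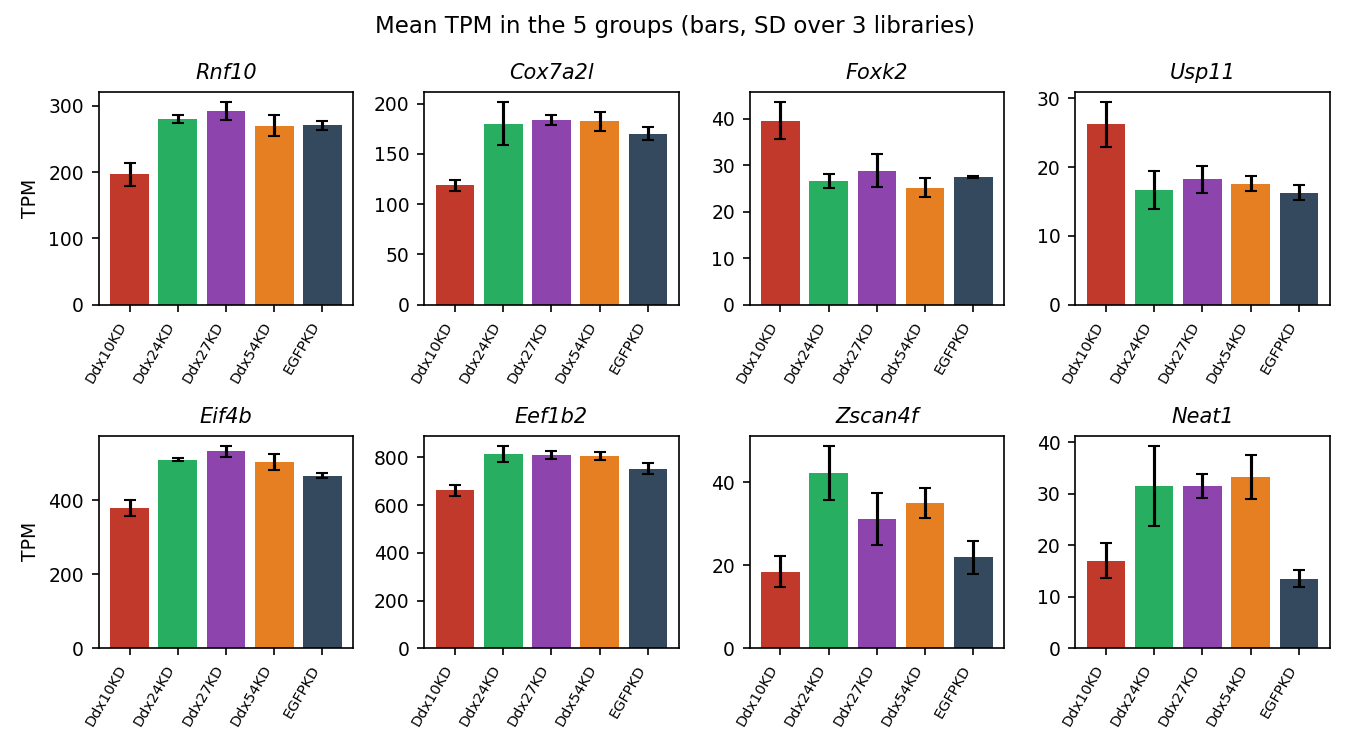
Mean TPM of 8 genes in Ddx10KD, Ddx24KD, Ddx27KD, Ddx54KD and EGFPKD, with bars from 0 and error bars of 1 SD over 3 libraries. Rnf10, Cox7a2l, Eif4b and Eef1b2 are lowest in Ddx10KD, Foxk2 and Usp11 are highest there, and Zscan4f and Neat1 lie near the EGFPKD level in Ddx10KD and above it in the other 3 knockdowns.

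Some translation genes stood lower in Ddx10KD than in the other knockdowns. Of 49 tested translation factors 7 were lower and 2 higher in this comparison (12 and 7 with the block), and the lower count was 4, 5 and 4 without Ddx10KD replicate 1, 2 and 3. Eif4b averaged 379 ± 21.2 TPM in Ddx10KD, 509.6 ± 4.17 in Ddx24KD, 532 ± 15.047 in Ddx27KD, 502 ± 21.6 in Ddx54KD and 466 ± 7.30 in EGFPKD (-0.48 ± 0.04, adjusted p 3.38e-06). Eef1b2 (-0.33 ± 0.04, 4.22e-04), the initiation factor 3 subunit Eif3f (-0.31 ± 0.04, 0.00245) and the elongation factor Eef2 (-0.23 ± 0.03, 0.00134) were lower as well, and these 4 calls held without any Ddx10KD library. Eef2 was not called against EGFPKD (0.04 ± 0.04). Of 79 ribosomal protein genes 10 (12.7%) were lower and none higher, with a median log2 difference of -0.10. The lower count was 43 with the block, and 1, 1 and 0 without Ddx10KD replicate 1, 2 and 3, so no single ribosomal protein call held throughout. Their summed level was 210224 to 218048 TPM in Ddx10KD, 213837 to 230318 TPM in the other 3 knockdowns and 201218 to 210551 TPM in EGFPKD. The ranges of Ddx10KD and of the other knockdowns overlapped, but in all 9 pairs of the same replicate number the sum was lower in Ddx10KD than in the other knockdown, and in all 3 such pairs it was higher in Ddx10KD than in EGFPKD. These 9 pairs use each of the 3 Ddx10KD libraries 3 times, so they are not independent. The pattern was not particular to ribosomal protein genes. In all 9 pairs the sums of G2 and mitosis and of iron and heme genes were lower in Ddx10KD too. Those of the proteasome and of small nucleolar ribonucleoprotein genes were higher in all 9. The matrix list was likewise higher in Ddx10KD in all 3 pairs with EGFPKD. The median log2 difference of the shortest set of genes in this comparison was -0.01.

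Genes of the 2-cell-like state, a rare state that stem cells enter for a short time, also differed. Of 30 tested members 13 were lower in Ddx10KD than in the other knockdowns and none higher (18 with the block, and 12, 3 and 3 without Ddx10KD replicate 1, 2 and 3), with a median log2 difference of -0.72. Against EGFPKD, 1 was higher and 0 were lower. Zscan4f averaged 18.4 ± 3.70 TPM in Ddx10KD, 42.2 ± 6.59 in Ddx24KD, 31.1 ± 6.22 in Ddx27KD, 35.0 ± 3.57 in Ddx54KD and 21.9 ± 3.98 in EGFPKD (-0.999 ± 0.15, adjusted p 0.00254), and its call held without any Ddx10KD library. Members of the Zscan4 family are near-identical copies whose reads can be split among them, so they are not independent. Neat1, the RNA scaffold of paraspeckles, averaged 17.0 ± 3.36 TPM in Ddx10KD, 31.5 ± 7.85 in Ddx24KD, 31.5 ± 2.36 in Ddx27KD, 33.2 ± 4.30 in Ddx54KD and 13.5 ± 1.74 in EGFPKD (-0.95 ± 0.13, adjusted p 0.00122). In this gene too, Ddx10KD lay near EGFPKD.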

How the data were processed

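Poly(A) RNA of E14 cells was sequenced in 3 Ddx10KD and 3 EGFPKD libraries, and in 9 further knockdown libraries that entered the same fit. The authors deposited RSEM expected counts per gene, which are estimated reads before any scaling for depth, and TPM beside them, with mm10 as the build per the submitters' processing notes. Version, aligner and annotation: not given in the sources used here. In the authors' deposited comparison table, the posterior probabilities are scores per gene and the fold changes are ratios of Ddx10KD to EGFPKD. Library preparation is not stated to keep strand, so reads of overlapping and antisense genes cannot be told apart.

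Expected counts were rounded to integers, filtered with filterByExpr (14335 of 23845 genes, 99.97% of counts), scaled by TMM and fitted with edgeR's quasi-likelihood test over all 15 libraries, with Benjamini-Hochberg adjustment over all tested genes (R 4.3.3, edgeR 4.0.16, limma 3.58.1, DESeq2 1.42.0). The contrasts were Ddx10KD against EGFPKD and Ddx10KD against the mean of the other 3 knockdowns. On simulated counts for the first contrast (13956 genes tested), 88% of 100 genes changed 1.5-fold and 100% of 100 genes changed 3-fold were recovered, with 12 unchanged genes called. The spread between replicates exceeded that of counting (chi-squared per degree of freedom of 7.75 in Ddx10KD and 6.35 in EGFPKD).

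Replicate numbers were checked for pairing: once group means were removed, the 30 correlations of same-numbered libraries across groups were 0.106 to 0.335, and none between different numbers exceeded 0.0530. The latter is not separate evidence. Removing group means makes correlations between different numbers negative on average when the same-numbered ones are positive. By the same-numbered correlations, the numbers, from the titles, pair the libraries. Fits with the number as a block are given where they change a call, or move a count by over 1.5 times and at least 2 genes. Fits that leave out a library ignore the pairing.

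The gene lists and members were chosen with earlier results of these data known. Named genes are Ddx10, up to 20 genes each way by log2 change (mean level in 1 group of 5 TPM or more, groups apart, no p53 or ATF4 list gene) and up to 10 each way by TPM difference under the same conditions. They also include up to 6 called members per list with at least 3 calls, those with the smallest p among members whose groups did not overlap. For genes chosen under these conditions, a lack of overlap between groups follows from the choice. All called members of signalling lists belong to the named genes, with or without overlap, as do up to 10 genes each way against the other knockdowns. Not every one of these genes is printed above. Those left out include Fgf5, Fgfr1, Etv1 and Sfrp2, whose calls were each lost without at least 1 library. Further list members were named for their known role after their values were seen. Some genes of the lists are not reported here. Alternatives were other scalings, DESeq2, limma-voom, other count filters, the block, the 2 groups alone, an adjusted p under 0.01 and each compared library left out. Positions are from GENCODE M21 on mm10, and promoter sequences from RefSeq on GRCm38.p6.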

Additional observations from a re-analysis of the deposited data

Results flagged for a closer look

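Each of the following genes differed between Ddx10KD and the mean of the other 3 knockdowns by a test of that difference, which compares the knockdown effects without EGFPKD. The log2 differences of the higher genes were 0.83 for Ddx27, 0.75 for Raet1c, 0.70 for Raet1a, 0.68 for Tmem181a, 0.63 for Rnf166, 0.58 for Ddx54, 0.55 for Usp11, 0.53 for Ccdc112, 0.52 for Foxk2 and 0.52 for Dpp4. Ddx27 and Ddx54 were themselves targets of 2 of the other knockdowns. The log2 differences of the lower genes were -2.25 for Ddx10, -1.02 for Zscan4b, -1.01 for Zscan4a, -0.999 for Zscan4f, -0.95 for Neat1, -0.92 for Zscan4d, -0.88 for Zscan4c, -0.65 for Cox7a2l, -0.60 for Cox6b2 and -0.55 for Rnf10.

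Of these 20 genes, 11 lost their call without 1 of the 3 Ddx10KD libraries, and those were Raet1c, Raet1a, Tmem181a, Rnf166, Ccdc112, Dpp4, Zscan4b, Zscan4a, Zscan4d, Zscan4c and Cox6b2. Raet1c, a stress ligand of natural killer cells, averaged 16.5 ± 2.83 TPM in Ddx10KD, 10.4 ± 1.94 in Ddx24KD, 11.2 ± 0.438 in Ddx27KD, 7.49 ± 1.27 in Ddx54KD and 5.21 ± 1.26 in EGFPKD (adjusted p 0.0136, and up to 0.152 without a Ddx10KD library). Cox6b2, a testis form of a respiratory subunit, averaged 78.5 ± 10.3 TPM in Ddx10KD, 116 ± 16.3 in Ddx24KD, 112 ± 11.5 in Ddx27KD, 121 ± 12.2 in Ddx54KD and 34.9 ± 2.03 in EGFPKD (0.00911, and up to 0.0851). Raet1 and Zscan4 genes are near-identical copies whose reads can be split.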

How the results depend on the processing

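The count of genes called against EGFPKD stayed within 1.5 times its value of 4438 under every scaling, tool and filter tried, at 3329 to 6310, the highest being the replicate block, and at 3193 to 3974 without 1 of the compared libraries. An adjusted p under 0.01 left 2673 genes, and 588 of the 905 called list members, by its stricter threshold. Ddx10 kept its call throughout, at -2.61 to -2.28 without single libraries. Of 416 named genes, 58 lost their call without at least 1 library and 10 in another fit, and none reversed. The block ended no call of a named gene, and the list counts given that it moved by over 1.5 times and at least 2 genes stand with the results. Against the other knockdowns, the 224 calls became 455 by DESeq2, 1488 with the block, 56 at an adjusted p under 0.01, and 35 to 98 without single Ddx10KD libraries, and the cause of the first 2 was not tested. A fit without Ddx24KD replicate 2, chosen after seeing the data, gave 4765 calls against EGFPKD and 241 against the other knockdowns. With 3 libraries a group, changes under about 1.5-fold are recovered in part. Genes under the count filter were not tested.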

Other observations

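Apoptosis genes rose and fell in like numbers in Ddx10KD, 10 higher and 11 lower of 44 tested, and 7 of the higher members are in the p53 list. Among the lower members, the BH3-only gene Hrk averaged 0.280 ± 0.0624 TPM in Ddx10KD and 0.627 ± 0.0839 TPM in EGFPKD (-1.20 ± 0.27), and the Bcl-2 relative Bok changed by -0.61 ± 0.09. The mitochondrial flavoprotein Aifm1 changed by -0.39 ± 0.046 and Cflar, an inhibitor of death receptor signalling, by -0.43 ± 0.08. Of 37 immediate early genes 5 were higher and 2 lower (14 and 4 with the block, and 8 higher without Ddx10KD replicate 1). Of the 5 higher genes, 1 is in the p53 or ATF4 lists. Gadd45g, a stress-response gene, had 26.6, 33.8 and 32.9 TPM in Ddx10KD, against 6.94, 13.6 and 8.05 TPM in EGFPKD (1.65 ± 0.217), while Fos, Egr1 and Junb were not called (0.48 ± 0.55, 0.40 ± 0.18 and 0.13 ± 0.13). With the block Fos and Egr1 were called (adjusted p 0.0222 and 0.00163). Of 33 MYC targets 12 were lower and 2 higher (18 and 4 with the block), with the mitochondrial folate enzyme Shmt2 at -0.48 ± 0.06. Of the 12 lower members, 2 are in the p53 or ATF4 lists.

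Other helicases of the DEAD-box and DEAH-box families were called in 5 cases higher and 9 lower of 52, Ddx10 included (6 and 16 with the block, and a higher count of 3 without EGFPKD replicate 2). Dhx16, a spliceosome helicase, averaged 196 ± 8.05 TPM in Ddx10KD and 126 ± 2.64 TPM in EGFPKD (0.58 ± 0.06), and Eif4a3, of the exon junction complex, changed by -0.23 ± 0.04. Among components and usual targets of nonsense-mediated decay 6 of 23 were higher and 2 lower (9 higher and 6 lower with the block), with a higher count of 2 without Ddx10KD replicate 1, 3 without Ddx10KD replicate 2, 2 without Ddx10KD replicate 3, 3 without EGFPKD replicate 2 and 2 without EGFPKD replicate 3, and Upf2, a core factor, changed by 0.46 ± 0.07. In the decay list, 1 of the 2 lower members is in the p53 or ATF4 lists. Of 17 snoRNA host genes 3 were lower and 0 higher (2 higher and 5 lower with the block), and none of the 3 calls made without it held in every fit that left out a library. The shortest set of transcripts holds 11 of them. Of 4 Hox genes that passed the filter, Hoxb9 and Hoxc13, posterior members at low levels, were higher (1.05 ± 0.147 TPM in Ddx10KD and 0.417 ± 0.0462 TPM in EGFPKD, 1.27 ± 0.26, and 1.54 ± 0.235 TPM in Ddx10KD and 0.493 ± 0.112 TPM in EGFPKD, 1.57 ± 0.31). In iron and heme genes, 3 of 30 were higher and 4 lower (2 without EGFPKD replicate 1 and 2 without EGFPKD replicate 2 for the lower count), with the heme enzyme Cpox at 0.36 ± 0.07 and the transferrin receptor Tfrc at -0.23 ± 0.06. The shortest set holds 11 of these 30.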
